A study of Mus musculus with 24 samples.

Results

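The genes examined here lie around Trem2 on mouse chromosome 17. They were chosen by place and level: a first listed exon on chromosome 17, a lowest exon start between 43350000 and 53350000 (mm10, about 5 Mb on each side of Trem2), and a mean CPM (read counts scaled to a library of standard size) of at least 0.2 over 24 libraries, with every Trem and Treml gene left out. Of 24421 genes in the count table, 133 started in the interval, 6 of those were Trem or Treml genes, 37 fell under the level minimum, and 90 were kept as members. The level rule passed between Slc22a7 at 0.196 CPM, left out, and Ankrd66 at 0.282 CPM, kept. At the edges of the interval, Adgrf5 and Kcnh8 were the outermost members, and E130008D07Rik and Rab5a were the nearest genes outside. Of the members, 78 lay on the lower-coordinate side of Trem2 and 12 on the higher, 45 were on each strand, and 19 overlapped the span of another gene.

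The study sequenced cortical RNA of 24 mice, all 7.5 months old and all carrying 5xFAD, a set of human transgenes that leads to amyloid plaques. The 4 groups of 6 mice, 1 library each, were WT at Trem2 and Plcg2, Trem2 Knockout (Trem2KO), PLCG2 Knockout (Plcg2KO) and PLCG2 Heterozygous Knockout (Plcg2HET). Plcg2KO had 4 males and 2 females, and each other genotype had 3 of each sex. How the Trem2 allele was made, in which strain, and how the mice were backcrossed is not given in the labels, and no mice without 5xFAD were analysed here. Mice are named by genotype and by the sex and number in their label (M1, F3).

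TREM2 is a lipid-sensing receptor on microglia, the macrophages that live in brain tissue, and its gene sits in a cluster of related receptor genes. In a knockout mouse the targeted gene stays linked to the DNA beside it. Genes near such a locus can therefore carry sequence of the strain in which the allele was made (passenger genes), and an inserted or deleted stretch can act on its neighbours. Either would be looked for as a difference between the knockout and every other genotype among genes close to the target, which is the comparison made here.

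Total counts ran from 36272966 to 82990818 per library, and the members held 0.462% to 0.716% of them. Rn45s, a ribosomal RNA precursor, took over 5% of counts in 3 libraries. These were Plcg2HET F3 (29.0%, also the library with the lowest total), WT F1 (9.59%) and Plcg2HET F1 (5.29%). Libraries also differed in how the deviation of a gene from its mean followed its GC content (Spearman correlation across genes). The correlation was -0.511 to 0.258 in WT, -0.566 to -0.285 in Plcg2KO and -0.0764 to 0.520 in Trem2KO. In Plcg2HET it was -0.451 in M3 and -0.371 in F2, against 0.279 to 0.556 in the other 4. The same correlation with gene length also differed. In WT it was -0.449 to -0.232 in females and 0.123 to 0.149 in males. It was 0.412 in Plcg2HET M3 and 0.385 in F2, against -0.270 to -0.0984 in the other 4. Trem2KO had -0.116 to 0.202 and Plcg2KO 0.0323 to 0.246. The labels name no sequencing batch. Summed markers of neurons, astrocytes and oligodendrocytes were at 3628 CPM or more in every library, and no marker was at 0 throughout. Markers of meningeal fibroblasts and border macrophages rose in 4 of 6 in Trem2KO, 5 in Plcg2KO and 4 in Plcg2HET, against WT.

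Trem2 itself (chr17:48346401-48352276, plus strand) checked the labels. Its level was 46.5 to 119 CPM (median 80.9) in WT and 4.59 to 7.45 CPM (median 5.97) in Trem2KO, so every Trem2KO library was below every other library of the study. It was 14.1 to 28.6 CPM (median 17.9) in Plcg2KO and 56.1 to 139 CPM (median 82.9) in Plcg2HET. The log2 fold change in Trem2KO against WT was -3.70 (SE 0.18, adjusted p = 1.13e-13), a level 7.72% of WT, and a two-sided exact permutation test of the 6 against 6 libraries gave p = 0.00216, the smallest it allows. Treml2, the only other Trem or Treml gene of the interval with enough counts to be tested, was at 0.933 to 4.41 CPM (median 2.76) in WT, 0.647 to 1.54 CPM (median 1.36) in Trem2KO and 0.262 to 1.14 CPM (median 0.601) in Plcg2KO. Its log2 fold change was -1.16 (SE 0.25, adjusted p = 0.00246) in Trem2KO and -1.96 (SE 0.27, adjusted p = 1.11e-05) in Plcg2KO. Trem1, Trem3, Treml1 and Treml4 were at most 0.233 CPM in every library.

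Promoter windows of Trem2 and of the member starts on which the results turn are shown first, each running from 250 bases before to 50 after the annotated start (RefSeq, GRCm38.p6, the assembly that mm10 names). B430306N03Rik is the member nearest to Trem2 and lies between Treml2 and Trem2, within the cluster. The windows of Oard1, B230354K17Rik and Xpo5 also hold the start of a neighbour on the opposite strand, Nfya, Cdc5l and Polh respectively. Nfya, the member next to Trem2 on the higher side, encodes the DNA-contacting subunit of NF-Y, which binds CCAAT, so the capitals mark CCAAT on either strand (written ATTGG where it lies on the other strand). All sequences are on the plus strand, 5′ to 3′, and the windows are chr17:48346151-48346450 (Trem2), chr17:48315912-48316211 (B430306N03Rik), chr17:48409750-48410049 (Oard1), chr17:45433581-45433880 (B230354K17Rik) and chr17:46202561-46202860 (Xpo5).
Trem2: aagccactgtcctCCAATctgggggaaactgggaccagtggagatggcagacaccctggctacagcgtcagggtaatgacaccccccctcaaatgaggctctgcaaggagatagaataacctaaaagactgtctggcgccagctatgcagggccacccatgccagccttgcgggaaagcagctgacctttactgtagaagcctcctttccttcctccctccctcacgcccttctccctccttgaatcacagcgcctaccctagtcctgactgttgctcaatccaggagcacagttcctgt
B430306N03Rik: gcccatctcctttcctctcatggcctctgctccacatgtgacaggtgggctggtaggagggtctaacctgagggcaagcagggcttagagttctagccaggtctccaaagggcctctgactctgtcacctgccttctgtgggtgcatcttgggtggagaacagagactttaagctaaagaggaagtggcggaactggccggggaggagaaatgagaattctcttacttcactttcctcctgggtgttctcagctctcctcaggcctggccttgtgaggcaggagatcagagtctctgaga
Oard1: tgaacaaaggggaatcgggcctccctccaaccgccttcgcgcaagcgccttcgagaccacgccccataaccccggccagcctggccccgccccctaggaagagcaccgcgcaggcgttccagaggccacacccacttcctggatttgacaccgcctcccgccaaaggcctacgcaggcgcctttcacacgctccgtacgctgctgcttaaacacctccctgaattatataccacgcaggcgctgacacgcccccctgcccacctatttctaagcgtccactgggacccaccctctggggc
B230354K17Rik: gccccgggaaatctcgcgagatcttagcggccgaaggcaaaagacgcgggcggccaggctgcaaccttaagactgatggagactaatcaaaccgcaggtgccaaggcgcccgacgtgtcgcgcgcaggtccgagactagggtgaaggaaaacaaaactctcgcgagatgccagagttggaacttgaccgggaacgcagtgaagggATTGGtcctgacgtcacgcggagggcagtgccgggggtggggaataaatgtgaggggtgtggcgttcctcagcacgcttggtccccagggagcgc
Xpo5: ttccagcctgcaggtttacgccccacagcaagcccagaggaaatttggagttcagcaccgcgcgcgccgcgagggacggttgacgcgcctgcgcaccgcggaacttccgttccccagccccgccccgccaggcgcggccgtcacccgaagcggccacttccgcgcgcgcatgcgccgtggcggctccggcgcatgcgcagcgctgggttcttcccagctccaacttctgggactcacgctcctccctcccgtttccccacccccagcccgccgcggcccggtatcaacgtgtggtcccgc
The Trem2 and B230354K17Rik windows each held 1 match, and the other 3 held none. Of all 32851 promoter windows in the table, 37.4% held a match, and of the 113 windows of the 78 members found there, 33.6% did.

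Of the 4 members that start within 0.5 Mb of Trem2, 0 were called in Trem2KO against WT at an adjusted p under 0.05 (edgeR), where 15.7% of all genes tested were called, so under 1 call in 4 genes is the background. Foxp4 and Oard1 had an unadjusted p under 0.05 (0.0213 and 0.0341). DESeq2, run over the same libraries, also called 0 of the 4. The count rests on the fit: with only the 2 genotypes compared, Foxp4 (0.45, adjusted p = 0.00207) and Nfya (-0.19, adjusted p = 0.0494) were called, with offsets that remove each library's trend with GC content and gene length Nfya was (-0.27, adjusted p = 0.0447), and without Plcg2HET M2 Foxp4 was (adjusted p = 0.0458). B430306N03Rik (chr17:48316162-48326511, 30.2 kb away) was at 0.370 to 1.09 CPM (median 0.846) in WT and 0.374 to 0.714 CPM (median 0.589) in Trem2KO, with a log2 change of -0.39 (SE 0.33, adjusted p = 0.459). The Trem2KO libraries lay inside the range of WT.

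Nfya (chr17:48386885-48409820, 40.5 kb away) stood at 20.6 to 24.6 CPM (median 22.4) in WT and 17.1 to 20.9 CPM (median 19.6) in Trem2KO. Its log2 fold change was -0.21 (SE 0.10, adjusted p = 0.182), and the groups overlapped by a few libraries. Oard1 (chr17:48410000-48417270, 63.6 kb away), which encodes a hydrolase that removes ADP-ribose from proteins, stood at 9.69 to 14.1 CPM (median 11.8) in WT and 8.06 to 11.5 CPM (median 9.68) in Trem2KO. Its log2 fold change was -0.24 (SE 0.11, adjusted p = 0.133). In Plcg2KO, Nfya was at 21.1 to 23.9 CPM and Oard1 at 10.6 to 12.3 CPM, within the WT range for each gene.

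Foxp4 (chr17:47867133-47924632, 479 kb away), a forkhead transcription factor, stood at 32.4 to 49.0 CPM (median 41.4) in WT and 48.7 to 65.1 CPM (median 52.3) in Trem2KO. All but the highest WT library lay below all Trem2KO libraries, and the log2 fold change was 0.44 (SE 0.18, adjusted p = 0.0974). In Plcg2HET the Foxp4 level was 39.0 to 109 CPM (median 64.6), and there it was called, with a log2 change of 0.72 (SE 0.18, adjusted p = 0.00745). The next members outward gave log2 fold changes in Trem2KO against WT of 0.04 for Mdfi, an inhibitor of myogenic transcription factors, 0.07 for Tfeb, a master regulator of lysosomal genes, -0.20 for Frs3, an adaptor of growth factor receptors, and 0.38 for Lrfn2, a synaptic adhesion protein. None of these 4 was called in Trem2KO (adjusted p of 0.0985 or more), but Lrfn2 was with only the 2 genotypes compared (0.40, adjusted p = 0.00944) and without WT F2 (adjusted p = 0.0494), and Frs3 was with GC and length offsets (-0.33, adjusted p = 0.0429).

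**Figure D1:**
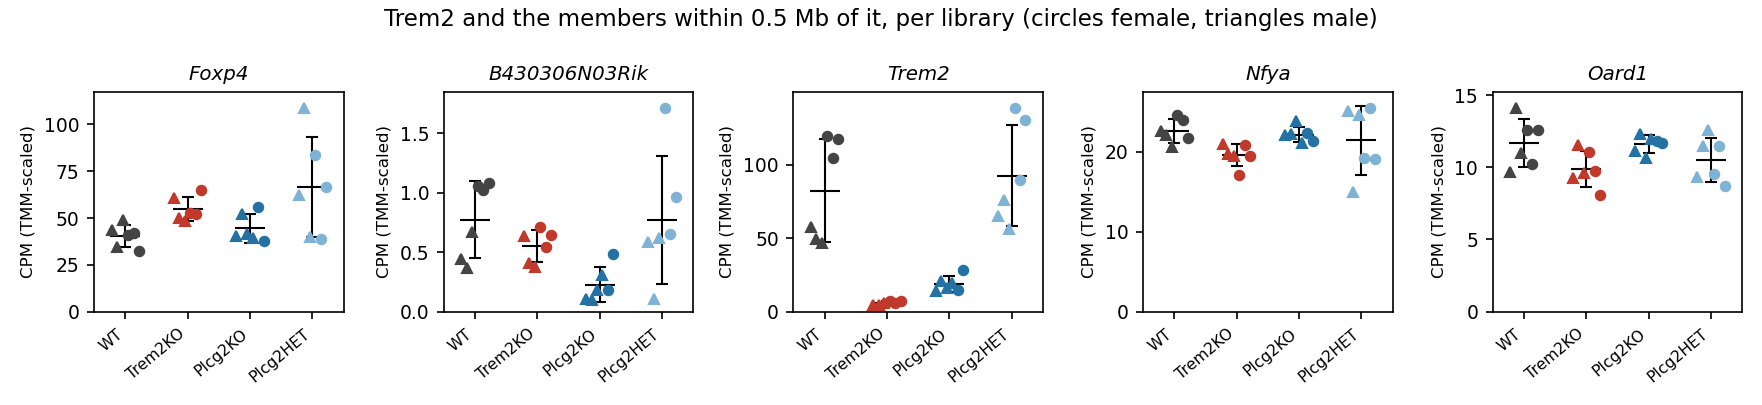
Level of Trem2 and of the 4 members within 0.5 Mb of it, in TMM-scaled CPM (y axes start at 0), by genotype on the x axis. Each point is 1 library (circles female, triangles male), and the bar is the mean ± SD of 6 libraries. Trem2 is at 4.59 to 7.45 CPM in Trem2KO, under all other libraries, while the 4 neighbours overlap between Trem2KO and WT, and B430306N03Rik is lowest in Plcg2KO.

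Over the whole list, 13 of 90 members were called in Trem2KO against WT (14.4%), 7 higher and 6 lower, against 15.7% of all 16316 genes tested (7.56% higher and 8.16% lower). DESeq2 called 14. With the GC and length offsets, 7 were higher and 11 lower, against 20.2% of all genes (9.57% and 10.6%). The share of members was thus near that of all genes, and on the rest of chromosome 17 it was 16.3% of 713 genes. The median absolute log2 fold change was 0.15 for the members and 0.18 for all genes tested. By distance, called members were 0 of 4 within 0.5 Mb, 1 of 16 from 0.5 to 1 Mb, 6 of 28 from 1 to 2 Mb and 6 of 42 from 2 Mb outward. In the comparison with the mean of the other 3 genotypes, a difference special to the Trem2KO mice would stand out. A difference from only some of them can be called there too. In it, 11 members were called (12.2%), 5 higher and 6 lower, against 12.6% of all genes (5.52% and 7.07%). Called there were 0 of 4 members within 0.5 Mb of Trem2 and 0 of 16 from 0.5 to 1 Mb. With the offsets 3 were higher and 7 lower, against 15.6% (6.80% and 8.78%). For 0 of 90 members did all 6 Trem2KO libraries lie above, or all below, the other 18 libraries. That held for 0.496% of all genes tested, and Trem2 was one of those. With the offsets it held for the members Rcan2 and Enpp5, and the share of all genes in that setting is not given here. Against Plcg2KO and Plcg2HET singly, 16 (17.8%) and 10 (11.1%) members were called, beside 16.5% and 15.5% of all genes. With the offsets these counts were 5 and 18, beside 7.05% and 26.2%.

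**Figure D2:**
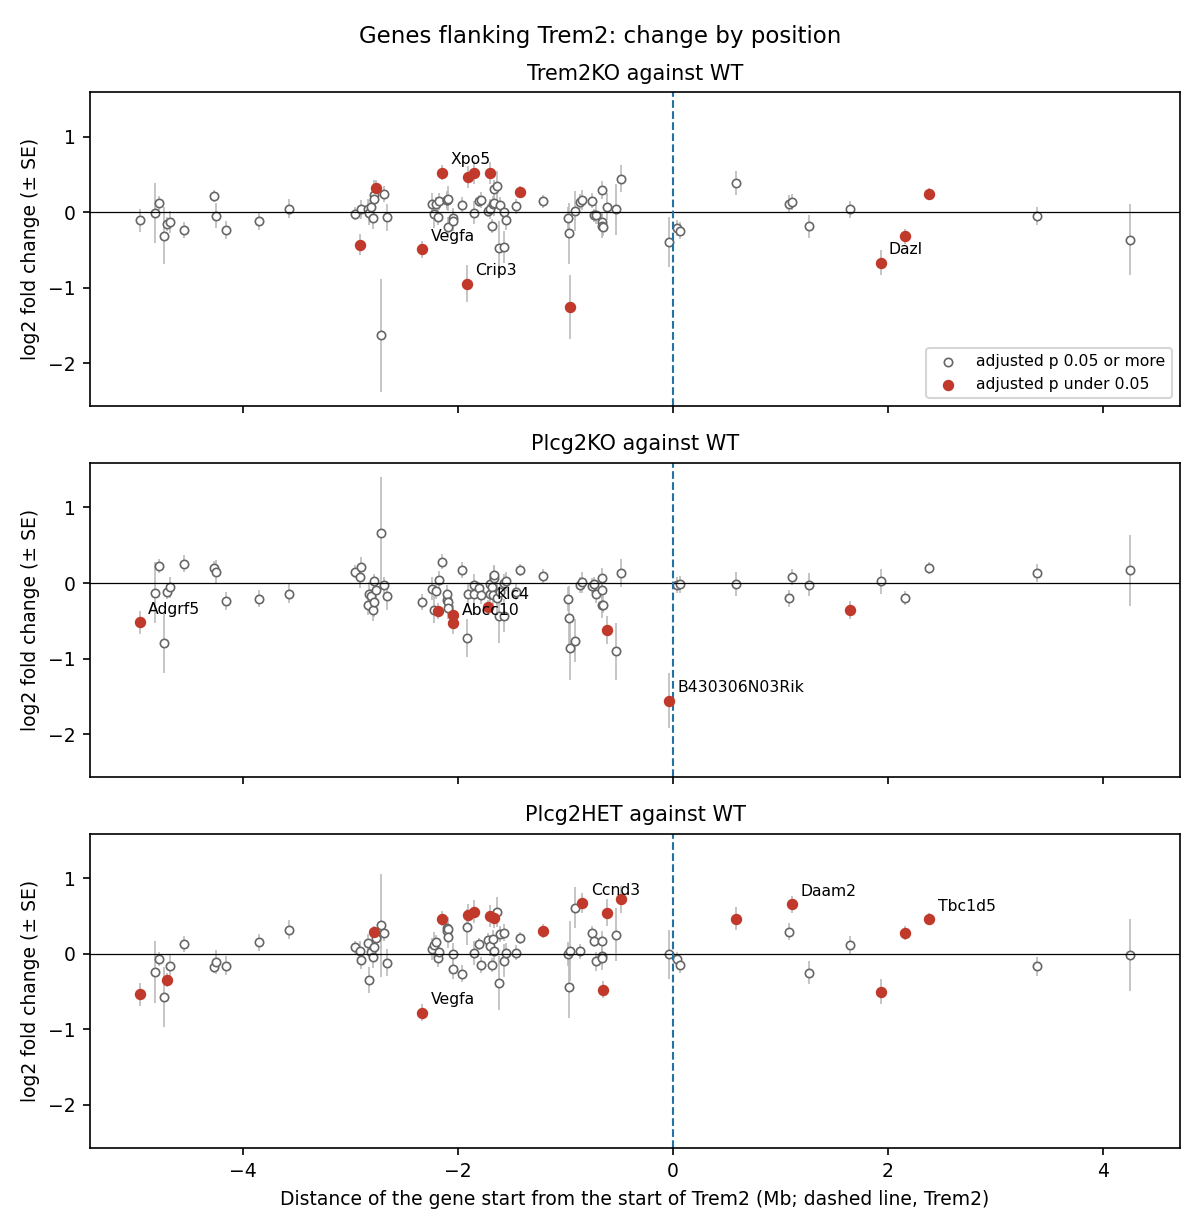
Log2 fold change (± SE) of each of the 90 members on the y axis, against the distance of its start from that of Trem2 in Mb on the x axis, for Trem2KO, Plcg2KO and Plcg2HET against WT. Filled points have an adjusted p under 0.05 (13, 8 and 19 members), and the 4 smallest p values are named in each panel. Called members in Trem2KO lie between 0.95 and 2.91 Mb from Trem2, with none nearer.

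Of the 7 members that rose in Trem2KO, 5 were among the 14 listed under protein folding, turnover and trafficking, of which 0 fell, where 7.56% of all genes tested were higher and 8.16% lower. The list was drawn up with earlier results known, and its count was not tested. It had a median log2 fold change of 0.21 (0.02 for all members). The count is not particular to Trem2KO. Of the same 14, 6 rose and 0 fell in Plcg2HET (median 0.34), where 10.9% of all genes were higher and 7.13% lower. In Plcg2KO 0 rose and 0 fell (median 0.01). Xpo5 (exportin 5, the exporter of microRNA precursors) went from 42.7 to 60.6 CPM (median 47.9) in WT to 64.0 to 80.03 CPM (median 72.2) in Trem2KO. The 2 groups did not overlap, and the log2 fold change was 0.52 (SE 0.10, adjusted p = 0.000699). Xpo5 was at 58.3 to 65.7 CPM in Plcg2KO and 56.1 to 82.9 CPM in Plcg2HET, where it also rose (0.46, adjusted p = 0.00233). A microRNA gene, Mir693, lies within the Xpo5 span.

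The cullins Cul7 and Cul9, scaffolds of ubiquitin ligases, went the same way. Cul7 was at 30.2 to 45.8 CPM (median 35.2) in WT and 46.2 to 56.4 CPM (median 52.4) in Trem2KO, a log2 change of 0.51 (SE 0.15, adjusted p = 0.0166). Cul9 was at 47.3 to 77.5 CPM (median 63.6) in WT and 79.0 to 103 CPM (median 84.4) in Trem2KO, a log2 change of 0.52 (SE 0.15, adjusted p = 0.0193). For each of them all Trem2KO libraries were above all WT libraries. In Plcg2HET both also rose, by 0.50 and 0.56 on the log2 scale (adjusted p = 0.0192 and 0.0122). There the Cul7 call was lost without WT F1, WT F3, Plcg2HET M2 or Plcg2HET F1 (adjusted p up to 0.0796), and without the libraries rich in Rn45s Cul7 was 0.36 (adjusted p = 0.214) and Cul9 0.31 (adjusted p = 0.264). The Cul7 call in Trem2KO was lost without WT F1 (adjusted p = 0.0562), and the Cul9 call without WT F1, WT F3 or Trem2KO F3 (0.0552 to 0.0633).

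Ubr2, a ubiquitin ligase of the N-degron pathway, was at 56.2 to 72.8 CPM (median 69.1) in WT and 77.0 to 87.1 CPM (median 79.0) in Trem2KO, again without overlap, with a log2 change of 0.27 (SE 0.08, adjusted p = 0.019). Tbc1d5, a regulator of endosomal sorting, was at 37.6 to 48.4 CPM (median 43.4) in WT and 48.7 to 54.2 CPM (median 50.8) in Trem2KO, with a log2 change of 0.25 (SE 0.08, adjusted p = 0.0317). Its level in Plcg2HET was higher still, 54.2 to 65.9 CPM (median 59.3). The Ubr2 call was lost without WT F3 or Trem2KO M1, and the Tbc1d5 call without any 1 of 8 libraries (adjusted p up to 0.0938). With GC and length offsets Cul7 became 0.31, Cul9 0.30 and Ubr2 0.17 and were still called, while Tbc1d5 became 0.17 and was not (adjusted p = 0.105).

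Outside that group, Ttbk1, a neuronal kinase of tau and tubulin, rose from 55.9 to 105 CPM (median 84.6) in WT to 103 to 138 CPM (median 109) in Trem2KO, where only the lowest libraries overlapped with the highest of WT. The log2 fold change was 0.47 (SE 0.15, adjusted p = 0.0343). It was called among 13 neuronal and synaptic members with no other, a share of 1 in 13 beside 15.7% of all genes. Slc29a1, an equilibrative nucleoside transporter, was at 17.8 to 22.9 CPM (median 20.3) in WT and 22.8 to 28.8 CPM (median 24.9) in Trem2KO, with a log2 change of 0.32 (SE 0.11, adjusted p = 0.0486). The Ttbk1 call was lost without any 1 of 7 libraries and the Slc29a1 call without any 1 of 15, with adjusted p up to 0.104 and 0.127. With GC and length offsets the Ttbk1 value was 0.29 (adjusted p = 0.0644).

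Among the members that fell in Trem2KO was Vegfa, the vascular endothelial growth factor. It was at 36.8 to 59.3 CPM (median 49.1) in WT, 28.1 to 41.8 CPM (median 33.6) in Trem2KO, 37.2 to 46.5 CPM (median 40.7) in Plcg2KO and 23.04 to 34.9 CPM (median 28.4) in Plcg2HET. The log2 fold change was -0.49 (SE 0.11, adjusted p = 0.00377) in Trem2KO and -0.78 (SE 0.11, adjusted p = 0.000139) in Plcg2HET. Plcg2HET was thus the lowest group and lay wholly under WT, and Trem2KO overlapped with 1 WT library, F3. Markers of endothelial and mural cells were not called in Trem2KO (0 of 7 by edgeR and by DESeq2, 1 at an unadjusted p under 0.05). Their summed levels were 96.9 to 174 CPM in WT and 114 to 144 CPM in Trem2KO. Of the 7, 2 fell and 0 rose in Plcg2HET, with summed levels of 82.2 to 151 CPM. The part of cell content in the Vegfa result was not tested.

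Crip3, which encodes a small cysteine-rich LIM-domain protein, was at 0.552 to 1.06 CPM (median 0.773) in WT, 0.217 to 0.561 CPM (median 0.373) in Trem2KO, 0.285 to 0.608 CPM (median 0.440) in Plcg2KO and 0.672 to 1.21 CPM (median 0.987) in Plcg2HET. The log2 fold change in Trem2KO was -0.94 (SE 0.25, adjusted p = 0.0109). Plcg2KO libraries were about as low as those of Trem2KO, and its change there (-0.73, adjusted p = 0.0524) did not pass the test in the reported fit. It did pass by DESeq2 (adjusted p = 0.0299), with only the 2 genotypes compared (adjusted p = 0.0383) and in 6 of 24 fits that leave out 1 library. Raw counts were 17 to 37 per library in Trem2KO and 34 to 46 in WT.

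Dazl, an RNA-binding protein known from germ cells, was at 2.24 to 4.01 CPM (median 2.96) in WT and 1.63 to 2.52 CPM (median 1.74) in Trem2KO, with a log2 change of -0.67 (SE 0.17, adjusted p = 0.00779). It was at 2.56 to 3.66 CPM (median 2.99) in Plcg2KO, overlapping with WT, and at 1.21 to 2.699 CPM (median 2.11) in Plcg2HET. Trem2KO M3 stood above the other Trem2KO libraries, and 5 of 6 lay under all WT libraries. Guca1a, an activator of guanylate cyclase in photoreceptors, had a log2 change of -1.25 (SE 0.42, adjusted p = 0.0429) from levels of only 0.178 to 0.968 CPM in WT and 0.121 to 0.375 CPM in Trem2KO. Its call was lost without any 1 of 14 libraries (adjusted p up to 0.117).

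Plcl2, a phospholipase C-like protein without catalytic activity that is known from immune cells, was called in Trem2KO, 1 of 7 members of the immune and microglial group, a share near the 15.7% of all genes. It was at 93.2 to 139 CPM (median 112) in WT, 87.5 to 104 CPM (median 91.4) in Trem2KO, 86.2 to 113 CPM (median 99.02) in Plcg2KO and 114 to 175 CPM (median 139) in Plcg2HET. Its log2 fold change was -0.32 (SE 0.09, adjusted p = 0.0203) against WT and -0.34 (SE 0.08, adjusted p = 0.00522) against the mean of the other 3 genotypes. Of the Trem2KO libraries, 5 lay under all WT libraries and F3, at 104.0 CPM, lay within the WT range. Trem2KO and Plcg2KO overlapped. Against WT the call was lost without WT F2, WT F3, Trem2KO F1 or Trem2KO F2 (adjusted p = 0.0527 to 0.0599), and with GC and length offsets (0.256). Those offsets also ended the call against the mean of the other 3 genotypes (-0.26, adjusted p = 0.141). Microglial markers moved with the genotype: 10 of 12 fell in Trem2KO and 11 of 12 in Plcg2KO, with summed levels of 1097 to 1858 CPM in WT, 748 to 1062 CPM in Trem2KO and 606 to 971 CPM in Plcg2KO, and none at 0. Their part in the Plcl2 result was not tested. In bulk cortex, fewer cells of a type and less RNA per cell cannot be told apart.

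**Figure D3:**
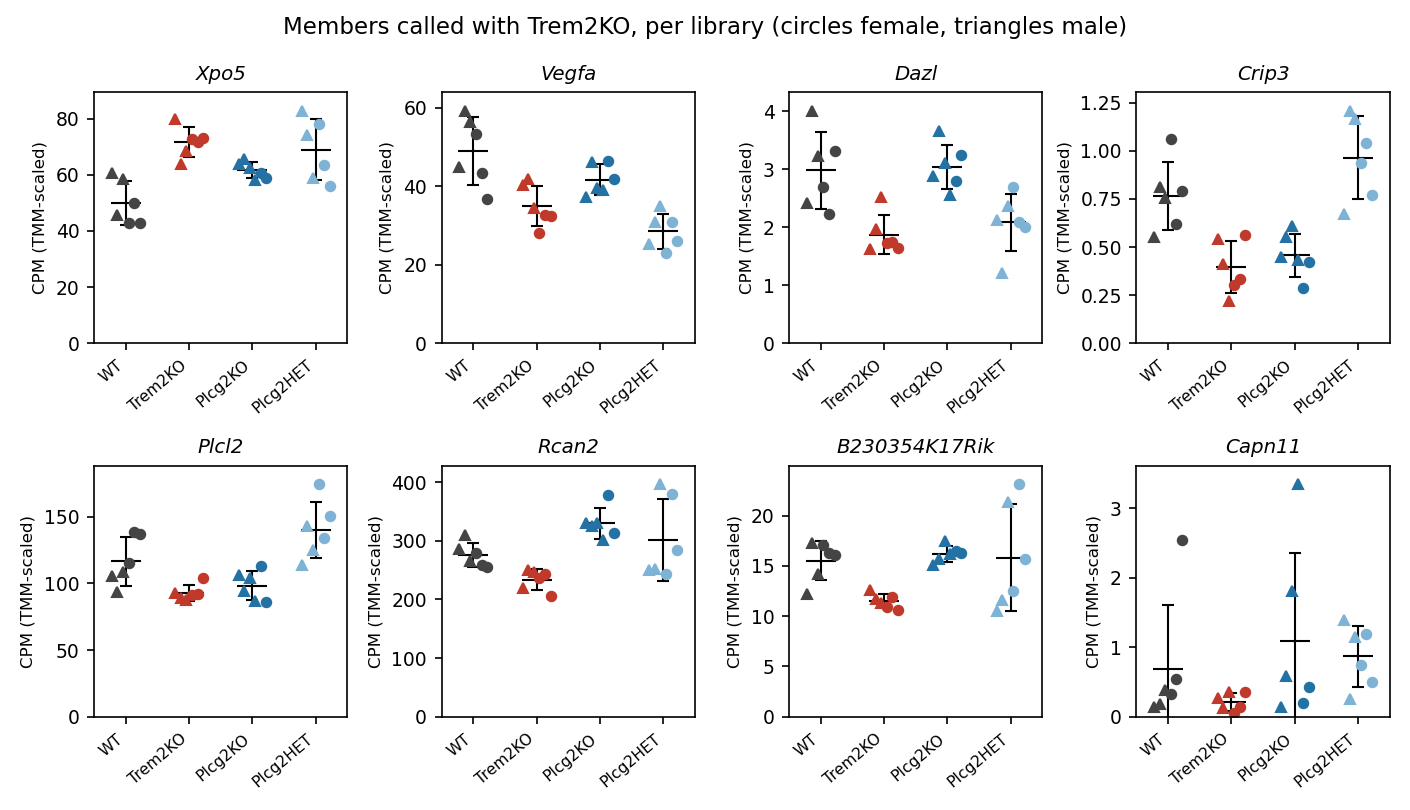
Level of 8 members called in Trem2KO against WT or against the mean of the other 3 genotypes, in TMM-scaled CPM (y axes start at 0), by genotype on the x axis. Each point is 1 library (circles female, triangles male), and the bar is the mean ± SD of 6 libraries, with lower ends cut at 0 for Capn11. Xpo5 lies at 64.0 CPM or more in Trem2KO against 42.7 to 60.6 CPM in WT, while Vegfa is lowest in Plcg2HET.

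Rcan2 was called against the mean of the other 3 genotypes but not against WT. This regulator of the phosphatase calcineurin was at 206 to 249.5 CPM (median 240.3) in Trem2KO, 255 to 309.8 CPM (median 272) in WT, 302 to 378 CPM (median 327) in Plcg2KO and 244 to 397 CPM (median 268) in Plcg2HET. All Trem2KO libraries were under all WT and Plcg2KO libraries, and 1 Plcg2HET library, F1 at 244 CPM, lay within their range. Its log2 fold change was -0.37 (SE 0.09, adjusted p = 0.0106) against the mean of the other 3 genotypes and -0.24 (SE 0.11, adjusted p = 0.146) against WT. Against WT it passed the test under the offsets (-0.20, adjusted p = 0.0268) and with only the 2 genotypes compared (-0.22, adjusted p = 0.0203). Rcan2 lies 4.54 Mb from Trem2. With GC and length offsets the values of Rcan2 in all 6 Trem2KO libraries lay under the other 18, and those of Enpp5 above them. The share of all genes set apart under the offsets is not given here, so this is a description only.

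B230354K17Rik, a long noncoding RNA gene by the GENCODE annotation, was at 10.6 to 12.6 CPM (median 11.5) in Trem2KO and 12.2 to 17.3 CPM (median 16.2) in WT. It was at 15.1 to 17.5 CPM (median 16.2) in Plcg2KO and 10.6 to 23.1 CPM (median 14.1) in Plcg2HET. Its log2 fold change was -0.46 (SE 0.12, adjusted p = 0.0128) against the mean of the other 3 genotypes and -0.43 (SE 0.14, adjusted p = 0.0418) against WT. Within Plcg2HET, M3 and F2 stood at 21.4 and 23.1 CPM and the other 4 libraries at 10.6 to 15.7 CPM, and the lowest of these overlapped with Trem2KO. The call against WT was lost without any 1 of 10 libraries (adjusted p = 0.0522 to 0.109).

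Another 5 members called against WT were also called against the mean of the other 3 genotypes. Crip3 had a log2 difference of -0.82 (SE 0.21, adjusted p = 0.0132), and the call was kept in each of the 24 fits that leave out 1 library. Dazl had -0.51 (SE 0.14, adjusted p = 0.0197), which became -0.31 with GC and length offsets (adjusted p = 0.111) and was lost without Trem2KO M1, F1 or F3. Xpo5 had 0.27 (SE 0.08, adjusted p = 0.0244), lost without Trem2KO M1, F1, F2 or F3. Slc29a1 had 0.28 (SE 0.09, adjusted p = 0.0363) and Cul7 0.35 (SE 0.12, adjusted p = 0.0468), lost without any 1 of 5 and 15 libraries. Cul7 became 0.20 with the offsets (adjusted p = 0.0671).

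The last 3 of the 11 calls in that comparison were of members not called against WT. Ptk7, a receptor-like protein of Wnt and planar polarity signalling, had a log2 difference of 0.26 (SE 0.09, adjusted p = 0.0444), and Enpp5, of the ectonucleotide pyrophosphatase family, had 0.20 (SE 0.07, adjusted p = 0.0458). Capn11, a calpain protease, had -1.98 (SE 0.64, adjusted p = 0.041), from 0.0536 to 0.362 CPM in Trem2KO. The other genotypes ranged widely, with 0.138 to 2.55 CPM in WT, 0.143 to 3.35 CPM in Plcg2KO and 0.257 to 1.39 CPM in Plcg2HET, and the Capn11 call was lost without any 1 of 9 libraries (adjusted p up to 0.104). The Ptk7 and Enpp5 calls were lost without any 1 of 12 and 16 libraries. With GC and length offsets Ptk7 became 0.10 (adjusted p = 0.561) and Enpp5 became 0.30 (adjusted p = 0.00016).

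Some members start close to each other. In 8 pairs, 16 members in all, the starts lay head to head within 500 bases on opposite strands. In Trem2KO against WT, 2 pairs had a called gene and 0 had both called, where 15.7% of all genes tested were called. With so few pairs at that share, the count is not read as a result about the pairs. Xpo5 was called, and Polh, a translesion DNA polymerase whose start lies 230 bases away, was not, with 0.15 (SE 0.11, adjusted p = 0.407). The log2 ratio of Xpo5 to Polh was 3.09 ± 0.18 in WT, 3.47 ± 0.18 in Trem2KO, 3.35 ± 0.19 in Plcg2KO and 3.53 ± 0.40 in Plcg2HET (mean ± SD, n = 6).

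B230354K17Rik and Cdc5l, a splicing factor, start 124 bases apart, in the window shown above. Cdc5l had a log2 change of -0.02 (SE 0.08, adjusted p = 0.898) in Trem2KO. The log2 ratio of B230354K17Rik to Cdc5l was -2.13 ± 0.22 in WT, -2.53 ± 0.12 in Trem2KO, -2.20 ± 0.12 in Plcg2KO and -2.23 ± 0.32 in Plcg2HET. Nfya and Oard1, 180 bases apart, had a log2 ratio of Oard1 to Nfya of -0.96 ± 0.23 in WT and -0.99 ± 0.25 in Trem2KO. The pairs were picked after their values were seen, so these ratios are a description and were not tested.

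Counts by other groups in Trem2KO against WT are read beside the 15.7% of all genes called. Of 17 genes of gene regulation, among them Nfya, Foxp4 and Tfeb, 0 were called, and their log2 fold changes ran from -0.21 to 0.44. DESeq2 called 0 of the 17, and 1 (Foxp4) had an unadjusted p under 0.05. Of 6 genes of mitochondrial translation and import 0 were called (-0.13 to 0.11), as were 0 of 4 of ribosome production (-0.18 to 0.16) and 0 of 4 of DNA repair and cell division (-0.06 to 0.16). In these 3 groups DESeq2 called 0, and 0 had an unadjusted p under 0.05. Hsp90ab1, the cytosolic chaperone HSP90 beta, was the member with the highest level per length and was not called in Trem2KO, with 0.18 (SE 0.08, adjusted p = 0.154). Klhdc3, also high per length, gave 0.10 (SE 0.12, adjusted p = 0.593). Over all members, 24 had an unadjusted p under 0.05 in this comparison.

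In Plcg2KO, whose targeted gene is on another chromosome, 8 members were called (8.89%), 0 higher and 8 lower, against 13.1% of all genes (5.44% higher and 7.63% lower). At an unadjusted p under 0.05 there were 6 higher and 17 lower, and DESeq2 called 2 higher and 10 lower. The median log2 fold change was -0.12 for the members and -0.0035 for all genes. It was -0.03 for the members with GC and length offsets, where 3 were higher and 8 lower, against 19.4% of all genes (8.94% and 10.5%). Members had a median GC content of 54.8%, against 49.8% for all genes tested. Across the 89 members with a GC value, the Spearman correlation of the log2 fold change with GC was -0.446 in Plcg2KO and 0.316 in Trem2KO (both against WT), and across 15693 genes it was -0.316 and 0.353. The points share libraries, and the part of GC in the calls was not tested.

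Of the 8 called members, B430306N03Rik fell most in Plcg2KO. It is the member closest to Trem2 and stood at 0.0971 to 0.485 CPM (median 0.181) in Plcg2KO, and 5 of 6 libraries lay under all WT libraries. The log2 fold change was -1.56 (SE 0.36, adjusted p = 0.00411). Raw counts were 6 to 31 per library in Plcg2KO and 20 to 73 in WT. In Plcg2HET it stood at 0.103 to 1.71 CPM (median 0.636), around WT. The direct difference of Trem2KO from Plcg2KO was 1.16 (SE 0.36, adjusted p = 0.0303). Trem2 and Treml2, between which it lies, had log2 fold changes of -1.89 and -1.96 in Plcg2KO against WT. Microglial markers fell too, 11 of 12 in Plcg2KO and 10 of 12 in Trem2KO, where 7.63% and 8.16% of all genes were lower. Their part in the B430306N03Rik result was not tested.

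Tfeb, the regulator of lysosomal genes, was at 4.67 to 6.47 CPM (median 5.54) in Plcg2KO against 6.95 to 11.0 CPM (median 8.81) in WT, without overlap, and its log2 fold change was -0.62 (SE 0.18, adjusted p = 0.0247). In Trem2KO it was at 7.34 to 12.2 CPM, overlapping with WT. Abcc10, a multidrug resistance transporter that overlaps Dlk2, was at 4.85 to 6.72 CPM (median 5.26) in Plcg2KO against 6.91 to 9.59 CPM (median 7.62) in WT, with a log2 change of -0.54 (SE 0.14, adjusted p = 0.013). Klc4, a kinesin light chain, had -0.32 (SE 0.09, adjusted p = 0.0193), which became -0.14 with GC and length offsets (adjusted p = 0.157). Adgrf5, an adhesion receptor known from endothelium, had -0.52 (SE 0.15, adjusted p = 0.0238). Adgrf5 was 43.6 CPM in WT M1, and without that library the call was lost, as it was without WT M3, Plcg2KO M1 or Plcg2KO M3 (adjusted p up to 0.109). In females alone its log2 fold change was 0.01 (adjusted p = 0.977), with 2 Plcg2KO females. Endothelial and mural markers moved too: 3 of 7 fell in Plcg2KO and 2 of 7 in Plcg2HET, with summed levels of 78.9 to 106 CPM in Plcg2KO, 82.2 to 151 CPM in Plcg2HET and 96.9 to 174 CPM in WT, none at 0, and their part in the Adgrf5 result was not tested. The Tfeb call was lost without any 1 of 5 libraries, and the Klc4 call without WT F2, Plcg2KO F1 or Plcg2KO F2.

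In Plcg2HET, 19 members were called (21.1%), 14 higher and 5 lower, against 18% of all genes (10.9% higher and 7.13% lower). With GC and length offsets 17 were higher and 7 lower, against 22.8% of all genes (12.4% and 10.3%). Of the 19 calls, 15 were kept with the offsets. Within 0.5 Mb of Trem2, 1 of 4 members rose (Foxp4) and 0 fell, and from 0.5 to 1 Mb 3 of 16 rose and 1 fell (Frs3). Daam2, a formin of Wnt and actin signalling 1.11 Mb away, was at 131 to 227 CPM (median 177) in Plcg2HET against 99.6 to 124 CPM (median 116) in WT, 117 to 129.8 CPM in Trem2KO and 103 to 132 CPM in Plcg2KO. All Plcg2HET libraries were above all WT libraries, and the log2 fold change was 0.65 (SE 0.11, adjusted p = 0.00037). Ccnd3, the cell cycle regulator cyclin D3, was at 19.5 to 37.4 CPM (median 31.0) in Plcg2HET against 15.6 to 21.1 CPM (median 18.8) in WT, with a log2 change of 0.67 (SE 0.13, adjusted p = 0.00143). Ccnd3 overlaps Bysl.

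Tfeb rose in Plcg2HET to 7.25 to 19.4 CPM (median 13.1), a log2 change of 0.55 (SE 0.18, adjusted p = 0.0357) with wide spread. Lrfn2 had 0.47 (SE 0.16, adjusted p = 0.0402), and Hsp90ab1 had 0.28 (SE 0.08, adjusted p = 0.0195), from 2068 to 2728 CPM (median 2196) in WT to 2371 to 3169 CPM (median 2832) in Plcg2HET. The Tfeb, Lrfn2 and Hsp90ab1 calls were lost without any 1 of 8, 7 and 4 libraries. Frs3 fell, with 6.12 to 10.2 CPM in Plcg2HET against 9.48 to 12.7 CPM in WT and a log2 change of -0.48 (SE 0.11, adjusted p = 0.00463). Slc25a27, a mitochondrial carrier of the uncoupling protein family, also fell, with -0.35 (SE 0.09, adjusted p = 0.011). Adgrf5 and Dazl fell with -0.54 (SE 0.15, adjusted p = 0.017) and -0.50 (SE 0.17, adjusted p = 0.0405), and those calls were lost without WT M1 and without any 1 of 7 libraries, respectively. The GC and length offsets ended the calls of Lrfn2 (0.27, adjusted p = 0.0536), Adgrf5 (-0.44, adjusted p = 0.0965) and Dazl (-0.33, adjusted p = 0.141). Under them Foxp4 became 0.44, Tfeb 0.27, Cul7 0.27, Cul9 0.34 and Ttbk1 0.32, and these were still called.

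Plcg2HET libraries did not move as 1 group. For all 14 members that rose, M3 or F2 was among the 2 lowest Plcg2HET libraries, and for 10 of them M3 and F2 were those 2. For the 5 that fell, M3 or F2 was among the 2 highest libraries in 3, and both were in 1. Ccnd3 was at 19.5 and 20.9 CPM in M3 and F2, within the WT range, and at 28.4 to 37.4 CPM in the other 4. Without M3 and F2, 48 members were called, 37 higher (41.1%) and 11 lower (12.2%). Beside them, 44.2% of all genes were called, 21.4% higher and 22.8% lower. Those 2 libraries differed from the other 4 in their trends with GC content and gene length as well, and the part of those trends was not tested. Without the 3 libraries rich in Rn45s, 2 of them Plcg2HET, 7 members were called, and the share of all genes is not given here. The calls of Foxp4, Tfeb, Lrfn2, Cul7, Cul9, Ttbk1, Plcl2, Hsp90ab1, Slc25a27 and Dazl in Plcg2HET were lost both in that setting and with only the 2 genotypes compared.

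**Figure D4:**
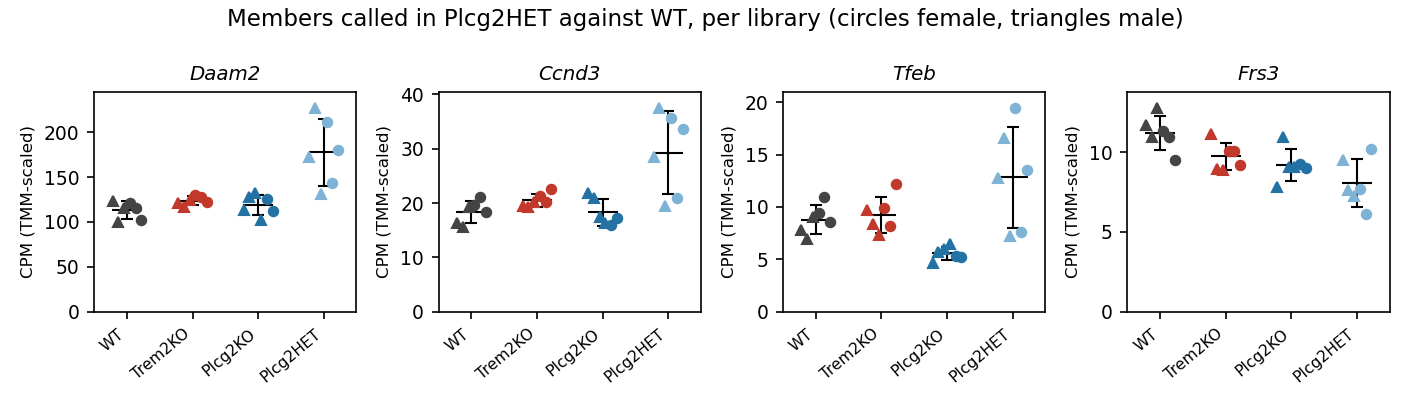
Level of Daam2, Ccnd3, Tfeb and Frs3 in TMM-scaled CPM (y axes start at 0), by genotype on the x axis. Each point is 1 library (circles female, triangles male), and the bar is the mean ± SD of 6 libraries. Plcg2HET spreads widely: Tfeb runs from 7.25 to 19.4 CPM there, against 6.95 to 11.0 CPM in WT.

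**Figure D5:**
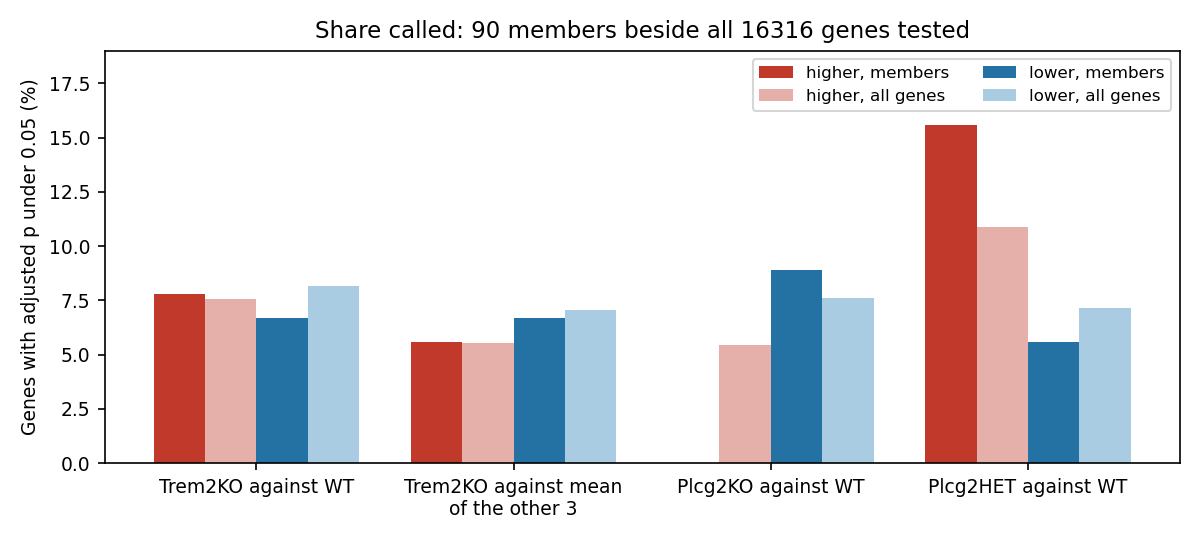
Share of the 90 members (dark bars) and of all 16316 genes tested (light bars) with an adjusted p under 0.05, in percent on the y axis, higher and lower, for 4 comparisons on the x axis. In Trem2KO against WT the members are at 7.78% higher and 6.67% lower, beside 7.56% and 8.16% of all genes.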

How the data were processed

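The authors deposited whole-number read counts per gene, with exon coordinates and summed exon length, per the file headers. STAR 2.7.10a and featureCounts 2.0.3 are listed in the submitters' processing notes, along with the build mm10. No source states the strand setting, so values of overlapping and antisense genes are uncertain. A further table deposited by the authors gave expected counts per gene, which were rounded to whole numbers and used only for an alternative.

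Counts were analysed with edgeR 4.0.16 in R 4.3.3. Genes with a minimum count of 10 by genotype (filterByExpr) were kept, 16316 in all, all 90 members among them. Libraries were scaled by TMM, and a robust quasi-likelihood model with 1 mean per genotype and a sex term was fitted over all 24 libraries. P-values were adjusted over all genes tested by the Benjamini-Hochberg method, and an adjusted p under 0.05 is a call. CPM values are TMM-scaled, except in the level rule. The model was tested on simulated data. Trem2 was also compared on log2(CPM + 0.5) by exact permutation. The labels call the samples separate mice.

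The members, gene groups and markers were chosen with earlier results of these data known. Named genes are the 5 nearest members on each side, the calls with the smallest p (up to 8 a direction for Trem2KO, 5 for Plcg2), up to 3 called members of each group, and the 3 highest per length. Alternatives were RLE scaling, other filters, no sex term, a block for the replicate code, only the groups compared, each sex alone, expected counts, GC and length offsets, no libraries rich in Rn45s, each library left out, and DESeq2 1.42.0. A fit without Plcg2HET M3 and F2 was chosen after seeing the data. Promoters came from RefSeq (GRCm38.p6), and GC content from GENCODE transcripts.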

Additional observations from a re-analysis of the deposited data

Results flagged for a closer look

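Single libraries stood far from the other 5 of their genotype in 5 of 140 gene and genotype combinations examined for Trem2 and the 34 named members. Chance flags about 1 in 20 such combinations. Dazl was at 2.52 CPM in Trem2KO M3, against 1.63 to 1.96 CPM in the other Trem2KO libraries. Plcl2 was at 104.0 CPM in Trem2KO F3, against 87.5 to 92.7 CPM. Rcan2 was at 378 CPM in Plcg2KO F1, against 302 to 330.3 CPM. Capn11 was at 2.55 CPM in WT F3, against 0.138 to 0.548 CPM. Klhdc3 was at 193 CPM in WT M2, against 231 to 249.7 CPM. Genotype effects against WT were also compared between the sexes (edgeR interaction contrasts). By adjusted p, 0 of 90 members and 0 of all 16316 genes tested were called, so the member count is that of the background. At an unadjusted p under 0.05 there were 4, 7 and 8 members for Trem2KO, Plcg2KO and Plcg2HET.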

How the results depend on the processing

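Counts of called members are given in the order Trem2KO against WT, Plcg2KO against WT, Plcg2HET against WT, and Trem2KO against the mean of the other 3 genotypes (13, 8, 19 and 11 as reported). RLE scaling, other count filters, no sex term and DESeq2 (14, 12, 26 and 15) kept each within 1.5 times. The share of all genes called is given for the reported counts and, in part, for the offsets and without Plcg2HET M3 and F2. For the other settings it is not given here. A change in the member count there may be shared by all genes, and is not read as a result about the members. With only the groups compared, the counts were 22, 16 and 5. In males alone they were 0, 1, 0 and 0 (6, 12, 24 and 3 at an unadjusted p under 0.05), and in females alone 4, 0, 4 and 0 (21, 18, 18 and 13). Expected counts gave 5 in Plcg2KO. Without the libraries rich in Rn45s, 7 were called in Trem2KO against WT and 7 in Plcg2HET. Without Plcg2HET M3 and F2, a setting chosen after seeing the data, they were 18 in Plcg2KO and 48 in Plcg2HET, and B230354K17Rik in Plcg2HET turned from 0.03 to -0.30 (adjusted p = 0.0178). GC and length offsets kept these 4 counts within 1.5 times. In females alone Adgrf5 in Plcg2KO turned to 0.012. Leaving out 1 library at a time gave 5 to 14, 3 to 10, 13 to 32, and 4 to 14. The counts moved by over 1.5 times without WT M2, F1 or F3 or Trem2KO M1, F1, F2 or F3 for Trem2KO against WT, without WT M3 or F2 or Plcg2KO M1, F1 or F2 for Plcg2KO, without its M3 or F2 for Plcg2HET (32 each), and without WT F1 or F3, Trem2KO M1, M2, F1, F2 or F3 or Plcg2KO M3 for the last. Members whose 6 Trem2KO libraries lay apart numbered 0 to 1 in these fits (Rcan2 without Plcg2HET F1), 1 in males alone, 4 in females alone (of 3 libraries) and 2 with the offsets. The shares of all genes set apart in these settings are not given here, so these counts are not read as a result about the members. The Trem2 log2 fold change was -3.77 to -3.63 in the fits that leave out 1 library. Of 46 called results of named members, 19 were kept in each of the 24 single-library fits and 0 in every fit and setting. The causes were not tested. With the replicate code as a block the counts were 8, 4, 15 and 7. The codes did not pair the samples: the correlation of deviations over 33 same-code pairs was -0.354 to 0.194.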
